A study of Mus musculus with 16 samples.

Results

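The genes described here are markers of the oviduct and of cells with motile cilia, read out in mouse ovary RNA. They were taken by symbol from a list of 10 names: Foxj1, Rsph1, Dnah5, Dnah9, Dnah11, Dnai1, Tppp3, Ovgp1, Pax8 and Tekt1. The table of 55426 genes held 9 of them under that symbol, and Dnai1 was found under its older symbol Dnaic1, which brought the number to 10. Enough counts for a test were present for 8, while Dnai1 and Pax8 were too low.

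Each library came from 1 ovary of 1 female mouse of the inbred strain C57BL/6NHsd, taken in diestrus, with 4 mice per group. On T mice were given weekly subcutaneous doses of 0.9 mg of testosterone enanthate, an ester that releases the hormone slowly, for 6 weeks and were 16 weeks old. Their controls, Control OT, had received the sesame oil vehicle and were also 16 weeks old. Post T mice had the same 6 weeks of testosterone, which was then stopped, and were killed 4 estrous cycles after cycling had returned, at 24 to 28 weeks of age. Their controls, Control PT, had received oil and were 24 to 28 weeks old. The labels state that the ovary was dissected from the surrounding fat, and they do not say how the oviduct was separated from it. A fragment of oviduct left on an ovary would add to these genes in that library, so every library is given. Library totals ran from 26598055 to 52659637 counts, and 3 counts, used as the detection floor, came to between 0.0571 and 0.117 CPM, counts relative to library size.

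The oviduct is lined by ciliated cells, which move the egg, and by secretory cells, which make the tubal fluid. A motile cilium is built on a ring of microtubule doublets that carry dynein motors, and radial spokes link this ring to a central pair. Foxj1 is the transcription factor that switches on the motile cilia program. Dnah5, Dnah9, Dnah11 and Dnai1 encode heavy chains and an intermediate chain of the outer dynein arm. Rsph1 is a radial spoke protein and Tekt1 is a tektin, a filament protein of the doublet wall. Tppp3 binds tubulin and is a marker of ciliated airway cells in the mouse, although other cell types make it too. Ovgp1, or oviductin, is a glycoprotein secreted by oviduct epithelium, and Pax8 is a transcription factor of Müllerian epithelium, which in the oviduct marks secretory cells. In the ovary none of the granulosa, theca or egg cells carries motile cilia.

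RFX transcription factors act with Foxj1 on cilia genes and bind a sequence known as the X-box. The promoters of axonemal genes are therefore shown first, as windows of 300 bases from 250 before to 50 after the transcript start, from RefSeq on GRCm38.p6. RefSeq windows were matched for 7 of the 10 genes. Both strands were searched for the half-sites GTTGCC and GTTACC, which cannot overlap each other, and matches are in capitals (on the opposite strand they read GGCAAC and GGTAAC). The Tekt1 window, at chr11:72361833-72362132 on the minus strand, held 3 matches, which began 87, 35 and 15 bases before the start. The Dnai1 window, at chr4:41569544-41569843 on the plus strand, held 1 match, 12 bases before the start. The Dnah9 window at chr11:66168502-66168801 on the minus strand and the Dnah5 window at chr15:28203516-28203815 on the plus strand held none. They are shown beside the others because, of all pairs of the 10 genes, Dnah9 and Dnah5 were next to Foxj1 and Pax8 in the closeness of their levels across libraries.
Tekt1: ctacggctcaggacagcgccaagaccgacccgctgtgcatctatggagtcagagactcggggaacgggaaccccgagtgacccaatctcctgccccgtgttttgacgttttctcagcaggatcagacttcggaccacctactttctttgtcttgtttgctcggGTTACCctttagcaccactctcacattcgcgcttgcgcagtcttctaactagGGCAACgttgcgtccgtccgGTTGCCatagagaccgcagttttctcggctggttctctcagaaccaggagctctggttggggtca
Dnai1: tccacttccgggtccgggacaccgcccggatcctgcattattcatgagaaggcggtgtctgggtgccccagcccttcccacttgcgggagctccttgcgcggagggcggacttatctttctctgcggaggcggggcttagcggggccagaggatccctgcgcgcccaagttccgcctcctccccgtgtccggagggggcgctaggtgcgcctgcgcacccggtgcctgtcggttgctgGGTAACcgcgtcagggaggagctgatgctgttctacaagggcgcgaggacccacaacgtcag
Dnah9: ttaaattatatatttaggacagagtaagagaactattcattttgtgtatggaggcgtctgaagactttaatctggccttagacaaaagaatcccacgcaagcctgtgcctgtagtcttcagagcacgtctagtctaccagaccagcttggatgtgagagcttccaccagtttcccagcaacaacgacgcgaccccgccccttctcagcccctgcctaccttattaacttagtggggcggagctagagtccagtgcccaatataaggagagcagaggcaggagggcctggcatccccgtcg
Dnah5: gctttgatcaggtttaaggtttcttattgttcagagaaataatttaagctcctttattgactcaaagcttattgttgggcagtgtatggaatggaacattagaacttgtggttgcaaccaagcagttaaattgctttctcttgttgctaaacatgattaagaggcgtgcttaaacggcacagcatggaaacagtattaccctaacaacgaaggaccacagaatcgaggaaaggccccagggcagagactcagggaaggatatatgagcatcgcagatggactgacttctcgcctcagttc

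A GTTGCC half-site was present in 12.5% of 32851 RefSeq promoter windows of the same length, a GTTACC half-site in 7.21%, and either in 18.6%. The windows of Dnah11, Ovgp1 and Pax8 held neither, and nor did a further Tekt1 window at another annotated start. The Tekt1 start with the 3 matches is not a transcript start in the GENCODE annotation. A match is a description of the letters and does not show binding.

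In TPM, a unit scaled for transcript length so that genes can be compared with each other, Tppp3 was far above the other genes, with a mean of 44.5 TPM over the 16 libraries. That is more than 81.4% of the genes tested had. Rsph1 averaged 2.73 TPM and Ovgp1 1.29 TPM. Tekt1 averaged 0.609 TPM, Dnah9 0.345 TPM, Dnai1 0.321 TPM and Foxj1 0.266 TPM, against a median of 10.6 TPM over all genes tested. Pax8, Dnah11 and Dnah5 were lowest, at 0.209, 0.198 and 0.0194 TPM. The range of Tppp3 over libraries, 22.5 to 85.9 TPM, did not meet that of Rsph1, 1.16 to 5.43 TPM. The range of Dnah11, 0.08 to 0.66 TPM, did not meet that of Dnah5, 0 to 0.06 TPM, and every other pair of neighbours in this order had overlapping ranges. Markers of the ovary itself were high in the same libraries, with Inha, the inhibin alpha subunit made by granulosa cells, at a mean of 2690.5 TPM.

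**Figure D1:**
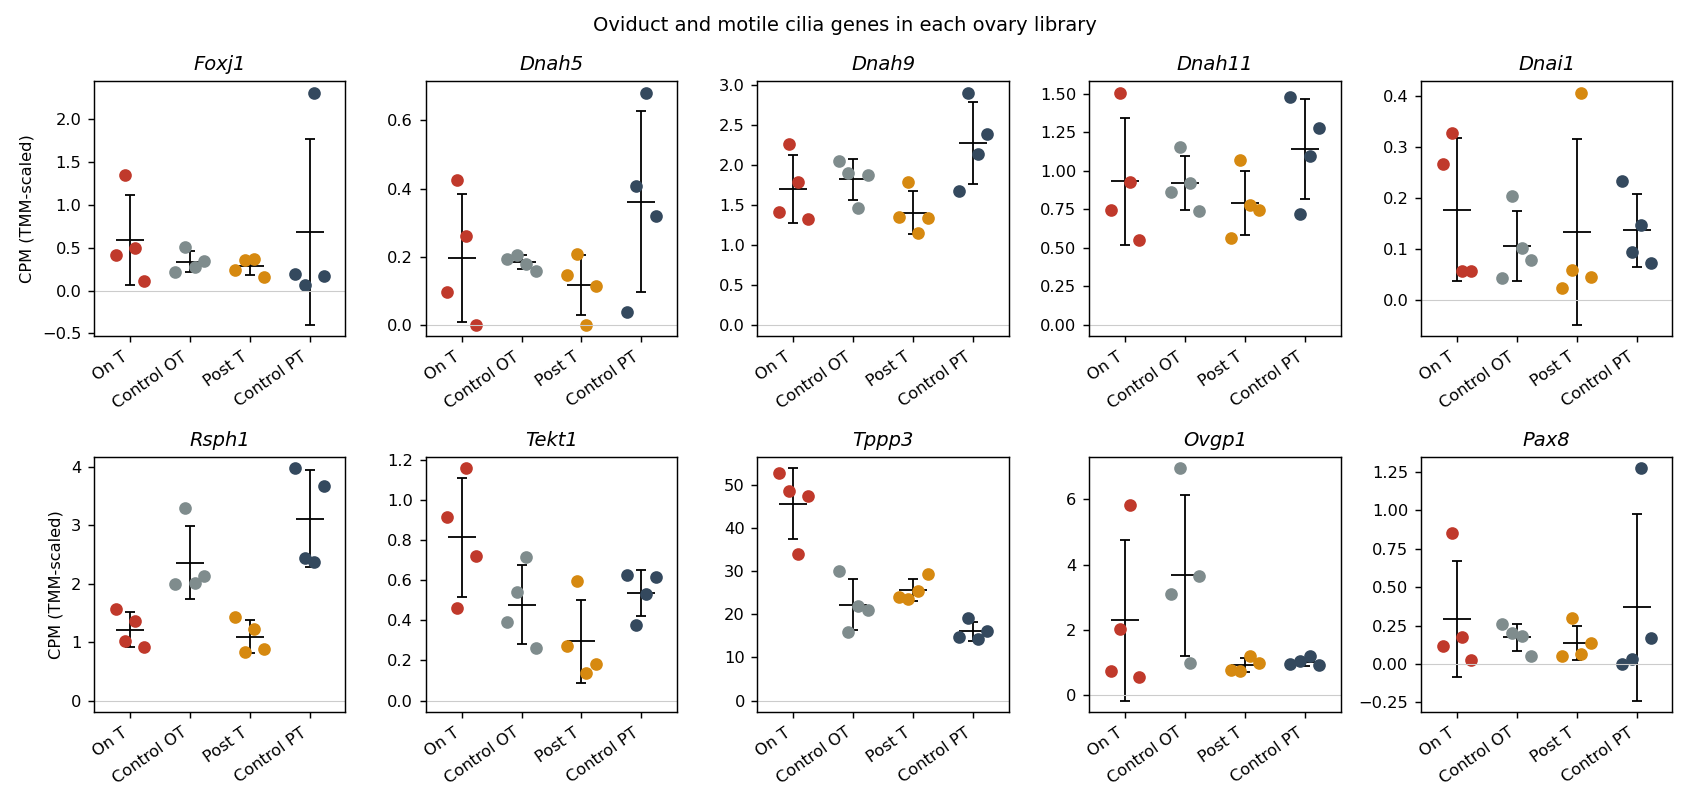
TMM-scaled CPM (vertical axes) of the 10 genes in each of the 16 ovary libraries, in the groups On T, Control OT, Post T and Control PT. Points are libraries and bars are the mean and SD of 4 libraries. Tppp3 sits between 33.9 and 52.7 CPM in On T and between 15.8 and 30.1 CPM in Control OT, and Foxj1 and Pax8 are each highest in Control PT replicate 3.

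Before the groups are compared, 2 libraries have to be set apart. Foxj1 had 78 counts in Control PT replicate 3 and 41 in On T replicate 2, against 2 to 22 in the other 14 libraries. Pax8 followed the same order, with 43 counts in Control PT replicate 3, 26 in On T replicate 2 and 0 to 12 in the others. Dnah5 was also highest in these 2 libraries, at 0.681 CPM in Control PT replicate 3 and 0.426 CPM in On T replicate 2. Control PT replicate 2 was close behind at 0.406 CPM, with the same 13 counts as On T replicate 2. Ovgp1, the secreted oviduct glycoprotein, was not highest in either of the 2 libraries. It stood at 1.18 CPM in Control PT replicate 3 and 2.03 CPM in On T replicate 2, below its highest value of 6.96 CPM in Control OT replicate 2. The remaining members did not single out both libraries either. Tppp3 was lowest of all libraries in Control PT replicate 3, at 14.3 CPM, and second highest in On T replicate 2, at 48.6 CPM. Dnah11 peaked in On T replicate 2, at 1.51 CPM, while Rsph1, Dnah9, Dnai1 and Tekt1 peaked in other libraries.

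Other cilia genes were then read from 5 lists: regulators of the cilia program, outer dynein arm and dynein assembly, inner arm and nexin-dynein complex, radial spoke and central pair, and doublet and tip proteins. The lists held 102 further genes, 36 of them too low to test. The summed level of those 36 was 6.96 CPM in Control PT replicate 3 and 4.65 CPM in On T replicate 2, while the other 14 libraries lay between 1.85 and 3.45 CPM with a median of 2.62 CPM. Of the 34 low genes with any count, 16 had their highest level in Control PT replicate 3 and 5 in On T replicate 2, with 4 each in On T replicate 3 and Post T replicate 2. These peaks have no baseline, since the same share was not computed over all genes too low to test. Genes with enough counts in only a few libraries fail the filter and so stay in this set. Whether the peaks are particular to cilia genes was not tested. Rsph4a, a radial spoke protein of motile cilia, had 21 counts in Control PT replicate 3 and at most 11 elsewhere. Sntn, a protein of the ciliary tip, had 3 counts in that library and was at 0 in 14 of the 16 libraries. Slc34a2, a phosphate transporter of secretory epithelium, had 22 counts in Control PT replicate 3, 10 in On T replicate 2 and at most 6 in the others. Its list of 28 genes of secretory epithelium had a summed level in On T replicate 2 of 61.8 CPM, the lowest of the 16 libraries. In Control PT replicate 3 the sum was 130 CPM, where the highest library had 148 CPM. Emx2 and Epcam alone had group means of 22.1 to 27.2 and 12.4 to 22.1 CPM. The sum therefore cannot show a change as small as that of Slc34a2. Among the 66 cilia genes with enough counts to test, 4 (6.06%) peaked in Control PT replicate 3, where 2.79% of all tested genes peaked. On T replicate 2 held the peak of 14 (21.2%), against 11.0% of all tested genes. Other libraries also held more of these peaks than of all peaks, such as Control OT replicate 3 with 7 (10.6%, against 5.29%) and On T replicate 4 with 7 (10.6%, against 5.94%). On T replicate 2 also had the highest summed level of 10 smooth muscle markers, at 4336.5 CPM, with 1276 to 2435 CPM in the other 15 libraries. Its summed level of 12 ovary markers was the lowest, at 2240 CPM, with 3216 to 8693 CPM in the other 15 libraries. Control PT replicate 3 had 4047 CPM of these ovary markers. Whether oviduct tissue was present in these 2 libraries was not tested, and the results below are given with and without them where they differ.

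**Figure D2:**
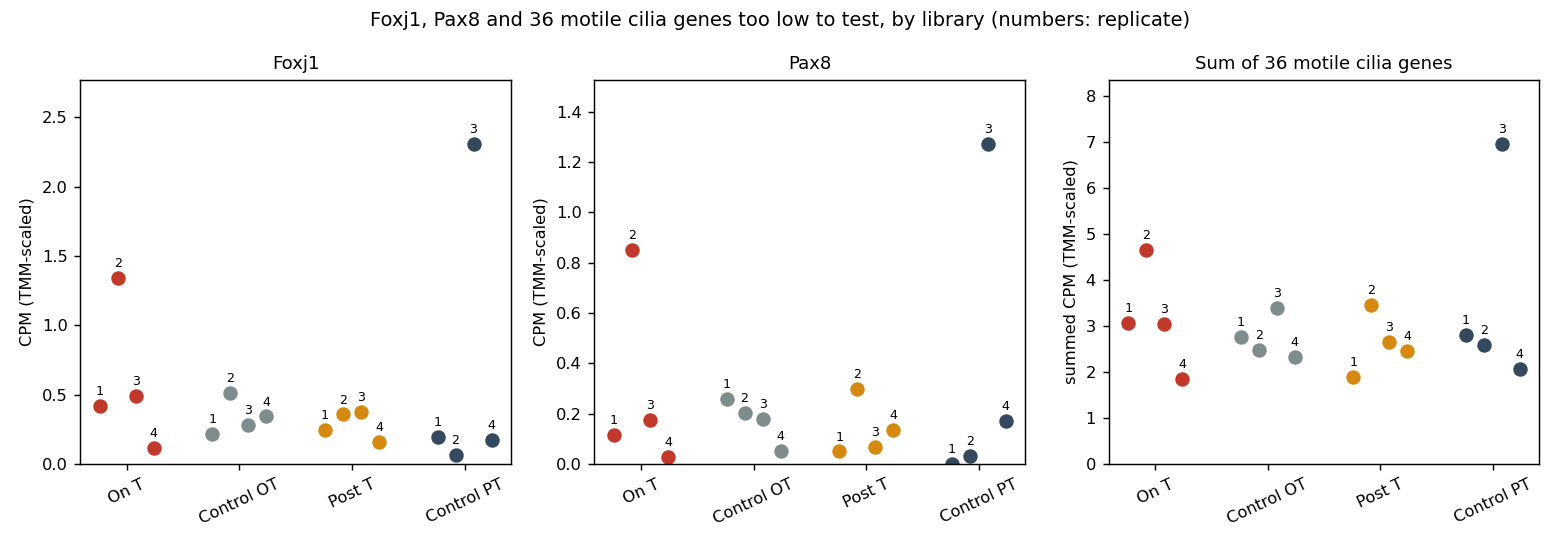
Foxj1, Pax8 and the sum of 36 motile cilia genes that were too low to test (vertical axes, TMM-scaled CPM) in each library, labelled by replicate, in the groups On T, Control OT, Post T and Control PT. Control PT replicate 3 is highest in all 3 panels, at 2.31, 1.27 and 6.96 CPM, and On T replicate 2 is next, at 1.34, 0.852 and 4.65 CPM.

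On testosterone, Tppp3 rose and Rsph1 fell, so the 8 genes tested did not move as a group. The edgeR quasi-likelihood test called 1 gene higher and 1 lower in On T than in Control OT ovaries at an adjusted p under 0.05. Over all genes tested, 9.27% were called in this comparison, 4.24% higher and 5.03% lower. The median log2 fold change of the 8 genes was 0.01, and that of all genes was -0.01. Leaving out On T replicate 2 and Control PT replicate 3 left 1 gene called, Tppp3.

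Tppp3 stood at 52.7, 48.6, 33.9 and 47.5 CPM in On T libraries, against 30.1, 15.8, 22.0 and 20.9 CPM in Control OT libraries. Every On T library was above every Control OT library. A lack of overlap in this direction was found for 7.22% of all genes tested. The means were 45.7 ± 8.17 CPM in On T and 22.2 ± 5.89 CPM in Control OT (SD, n = 4 each), a 2.05-fold difference with a log2 fold change of 1.04 ± 0.17 (SE) and an edgeR adjusted p of 0.000896. The call held when any library was left out. Because these are whole ovaries, a higher or lower level may come from the number of cells that make a transcript or from the RNA per cell, and these cannot be told apart. Of 10 smooth muscle markers, edgeR called 3 higher in On T ovaries (Acta2, Mylk and Myh11), beside 4.24% of all genes, while DESeq2 called 4 and limma 1. None of the 10 was at 0 in any library, and the summed levels were 2047 to 4337 CPM in On T against 1637 to 1847 CPM in Control OT. Their part in the Tppp3 result was not tested.

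Rsph1 moved the other way. It stood at 1.56, 1.02, 1.36 and 0.924 CPM in On T libraries, against 1.99, 3.29, 2.02 and 2.13 CPM in Control OT libraries. The highest On T library lay below the lowest Control OT library, as was the case for 7.92% of all genes tested. The means were 1.22 ± 0.297 CPM in On T and 2.36 ± 0.626 CPM in Control OT (SD, n = 4 each), with a log2 fold change of -0.94 ± 0.26 (SE) and an edgeR adjusted p of 0.0299. The call was lost when On T replicate 2 (adjusted p = 0.0745), On T replicate 4 (0.0942), Control OT replicate 2 (0.117) or Control OT replicate 4 (0.0547) was left out, and when the 8 libraries were fitted alone (0.0522), all in edgeR. Of 12 ovary markers edgeR called 1, beside 9.27% of all genes. This was Star, which carries cholesterol into mitochondria for steroid synthesis, at 55.2 ± 46.9 CPM in On T and 460.0 ± 137 CPM in Control OT (SD, n = 4 each). Its part in the Rsph1 result was not tested.

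The outer arm dyneins did not pass the test on testosterone. Dnah9 stood at 1.41, 2.26, 1.79 and 1.33 CPM in On T libraries and at 2.05, 1.90, 1.46 and 1.87 CPM in Control OT libraries (log2 fold change -0.11, SE 0.22, edgeR adjusted p = 0.82). Dnah11 stood at 0.743, 1.51, 0.925 and 0.549 CPM in On T libraries and at 0.864, 1.15, 0.920 and 0.737 CPM in Control OT libraries (log2 fold change 0.01, SE 0.31, edgeR adjusted p = 0.989). The groups overlapped for both genes, and On T replicate 2 held the highest On T value of each. Dnah5 had 5, 13, 9 and 0 counts in On T libraries and 9, 6, 7 and 6 counts in Control OT libraries. Dnai1 had 14, 10, 2 and 2 counts in On T libraries and 2, 6, 4 and 3 counts in Control OT libraries. Dnah5 had a log2 fold change of 0.01 with an SE of 0.80 (edgeR adjusted p = 0.995), which leaves its direction undetermined, and Dnai1 was too low to test.

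Foxj1, the regulator, stood at 0.419, 1.34, 0.491 and 0.116 CPM in On T libraries and at 0.216, 0.509, 0.281 and 0.342 CPM in Control OT libraries. The On T libraries spanned the whole Control OT range, with On T replicate 2 highest and On T replicate 4 lowest. Its log2 fold change of 0.81 ± 0.84 (SE) had an edgeR adjusted p of 0.629, and leaving out On T replicate 2 gave 0.07. Tekt1 stood at 0.914, 0.459, 1.16 and 0.722 CPM in On T libraries and at 0.389, 0.543, 0.716 and 0.263 CPM in Control OT libraries. Only On T replicates 1, 3 and 4 were above the highest Control OT library, and the log2 fold change of 0.78 ± 0.39 (SE) did not pass the test, with an edgeR adjusted p of 0.261.

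The epithelial genes Ovgp1 and Pax8 showed no clear order of the groups. Ovgp1 stood at 0.724, 2.03, 5.84 and 0.549 CPM in On T libraries and at 3.11, 6.96, 0.971 and 3.66 CPM in Control OT libraries. On T replicate 3 was the highest of its group and Control OT replicate 3 the lowest of its own, so the groups overlapped. Its log2 fold change of -0.69 ± 0.59 (SE) had an edgeR adjusted p of 0.545, and leaving out On T replicate 3 gave -1.74 with an edgeR adjusted p of 0.0493. Part of the Ovgp1 signal is uncertain, since 28.7% of its exon bases lie in the overlapping gene Gm42890 on the same strand. Pax8 stood at 0.114, 0.852, 0.173 and 0.0289 CPM in On T libraries and at 0.259, 0.204, 0.179 and 0.0527 CPM in Control OT libraries. On T replicate 2 was its only library above the Control OT range.

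After testosterone was stopped, Rsph1 and Dnah9 were lower and Tppp3 was higher in Post T than in Control PT ovaries. The edgeR test called 1 of the 8 genes higher and 2 lower, where 12.3% of all genes tested were called, 7.49% higher and 4.81% lower. The median log2 fold change of the 8 genes was -0.78, and that of all genes was -0.01. This median includes Foxj1 at -1.31, which turned to 0.97 without Control PT replicate 3. It also includes Dnah5 at -1.59, which passed the count filter through Control PT replicates 2, 3 and 4 and On T replicate 2. Its testing thus depended on high Control PT levels, and the median does not show a shift of the 8 genes as a set. Without On T replicate 2 and Control PT replicate 3, 7 genes were tested, of which 2 were called lower and none higher.

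Rsph1 stood at 1.43, 0.832, 1.22 and 0.880 CPM in Post T libraries, against 3.97, 2.44, 2.37 and 3.66 CPM in Control PT libraries. No Post T library reached the lowest Control PT library, as for 6.92% of all genes tested. The means were 1.09 ± 0.283 CPM in Post T and 3.11 ± 0.828 CPM in Control PT (SD, n = 4 each), with a log2 fold change of -1.51 ± 0.26 (SE) and an edgeR adjusted p of 0.000638. This call held when any library was left out. Star fell as well, at 289 ± 92.3 CPM in Post T and 1163 ± 984 CPM in Control PT (SD, n = 4 each). It was again the 1 gene that edgeR called of 12 ovary markers, beside 12.3% of all genes. Its part in the Rsph1 result was not tested. From low to high, the mean level of Rsph1 ran Post T, On T, Control OT, Control PT. Post T overlapped On T, and Control PT overlapped Control OT.

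Tppp3 stood at 24.1, 23.6, 25.4 and 29.2 CPM in Post T libraries, against 14.7, 19.1, 14.3 and 16.1 CPM in Control PT libraries. Again no library of one group fell within the other, which held in this direction for 9.62% of all genes tested. The means were 25.6 ± 2.55 CPM in Post T and 16.0 ± 2.18 CPM in Control PT (SD, n = 4 each), a 1.59-fold difference with a log2 fold change of 0.67 ± 0.17 (SE) and an edgeR adjusted p of 0.0139. The call held when any single library was left out, and was lost without On T replicate 2 and Control PT replicate 3 together (log2 fold change 0.62, edgeR adjusted p = 0.0501). From high to low, the mean level ran On T, Post T, Control OT, Control PT, and Post T lay within the range of Control OT. Of the 10 smooth muscle markers 0 were called here by edgeR, DESeq2 or limma, and 1 had an unadjusted p under 0.05. Adipocyte markers had summed levels of 398 to 447 CPM in Post T and 150 to 194 CPM in Control PT. Lpl and Fabp4 were called higher of 9 tested, beside 7.49% of all genes, and made up most of the Post T sum. Lpl averaged 249 CPM in Post T and 92.3 CPM in Control PT, and Fabp4 92.8 and 15.9 CPM. The median log2 fold change of the 9 was 0.22. Adipoq and Cidec, which define fat cells, were at 0 in 3 of the 16 libraries each. Among 15 markers of the ovarian surface edgeR called 1 higher, Aldh1a1, beside 7.49% of all genes. Their summed level was 4002 to 4723 CPM in Post T and 1990 to 2616 CPM in Control PT. Most of that sum was Aldh1a1 itself, with means of 3963 CPM in Post T and 1827 CPM in Control PT. The median log2 fold change of the 15 was -0.20. The part of these cell types in the Tppp3, Rsph1 and Dnah9 results was not tested.

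Dnah9 stood at 1.35, 1.78, 1.15 and 1.33 CPM in Post T libraries, against 1.68, 2.90, 2.13 and 2.39 CPM in Control PT libraries. Post T replicate 2 lay above Control PT replicate 1, so the groups overlapped. The means were 1.41 ± 0.267 CPM in Post T and 2.27 ± 0.512 CPM in Control PT (SD, n = 4 each), with a log2 fold change of -0.70 ± 0.22 (SE) and an edgeR adjusted p of 0.0465. It was lost in 12 of the 16 fits that left out 1 library, where the edgeR adjusted p ran from 0.029 to 0.155. Among these fits it held without On T replicate 2, Control OT replicate 3, Post T replicate 2 or Control PT replicate 1, and it held without On T replicate 2 and Control PT replicate 3 together (edgeR adjusted p = 0.0465). It was also lost with no filter (0.0934), with at least 1 CPM in 4 libraries (0.0533), with the 8 libraries alone (0.0748) and with an age term (0.056), all in edgeR. The limma adjusted p was 0.459 on log2(TPM + 1) and 0.442 on log2(TPM + 0.1). On the opposite strand, Gm12296 covers 3.10% of the Dnah9 exon bases and had at most 6 counts in a library.

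Dnah5, Dnah11 and Tekt1 were lower in mean level in Post T, without passing the test. Dnah5 had 6, 7, 0 and 5 counts in Post T libraries and 1, 13, 23 and 13 counts in Control PT libraries, with Control PT replicate 1 below 3 of the Post T libraries (log2 fold change -1.59, SE 0.76, edgeR adjusted p = 0.22). Dnah11 stood at 0.565, 1.07, 0.781 and 0.745 CPM in Post T libraries and at 1.48, 0.718, 1.10 and 1.28 CPM in Control PT libraries (log2 fold change -0.53, SE 0.31, edgeR adjusted p = 0.335). Its exons share 4.44% of their bases with Cdca7l on the opposite strand, a gene with 433 to 1186 counts per library that was itself called higher in Post T (log2 fold change 0.45, edgeR adjusted p = 0.0278). Tekt1 stood at 0.270, 0.594, 0.136 and 0.181 CPM in Post T libraries and at 0.623, 0.375, 0.533 and 0.615 CPM in Control PT libraries. Post T replicate 2 was the only Post T library inside the Control PT range. The log2 fold change of Tekt1 was -0.86 ± 0.43 (SE) with an edgeR adjusted p of 0.253, and leaving out Post T replicate 2 gave -1.40 with an edgeR adjusted p of 0.046. Dnai1 had 1, 2, 12 and 2 counts in Post T libraries and 6, 3, 5 and 3 counts in Control PT libraries, which sum to 17 counts in each group.

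For Foxj1 the direction rested on 1 library. It stood at 0.246, 0.357, 0.374 and 0.158 CPM in Post T libraries and at 0.195, 0.0625, 2.31 and 0.172 CPM in Control PT libraries. Control PT replicate 3 was above every Post T library, while the other 3 Control PT libraries lay at the low end of the Post T range or below it. Its log2 fold change of -1.31 ± 0.86 (SE) had an edgeR adjusted p of 0.415, and leaving out that library turned it to 0.97 with an edgeR adjusted p of 0.496. Pax8 stood at 0.0492, 0.297, 0.0679 and 0.135 CPM in Post T libraries and at 0, 0.0312, 1.27 and 0.172 CPM in Control PT libraries, with the same library highest. Ovgp1 stood at 0.762, 0.743, 1.19 and 0.993 CPM in Post T libraries and at 0.935, 1.03, 1.18 and 0.910 CPM in Control PT libraries. These 8 Ovgp1 values lay closer together than those of the younger mice, and the log2 fold change was -0.14 (SE 0.65, edgeR adjusted p = 0.937).

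**Figure D3:**
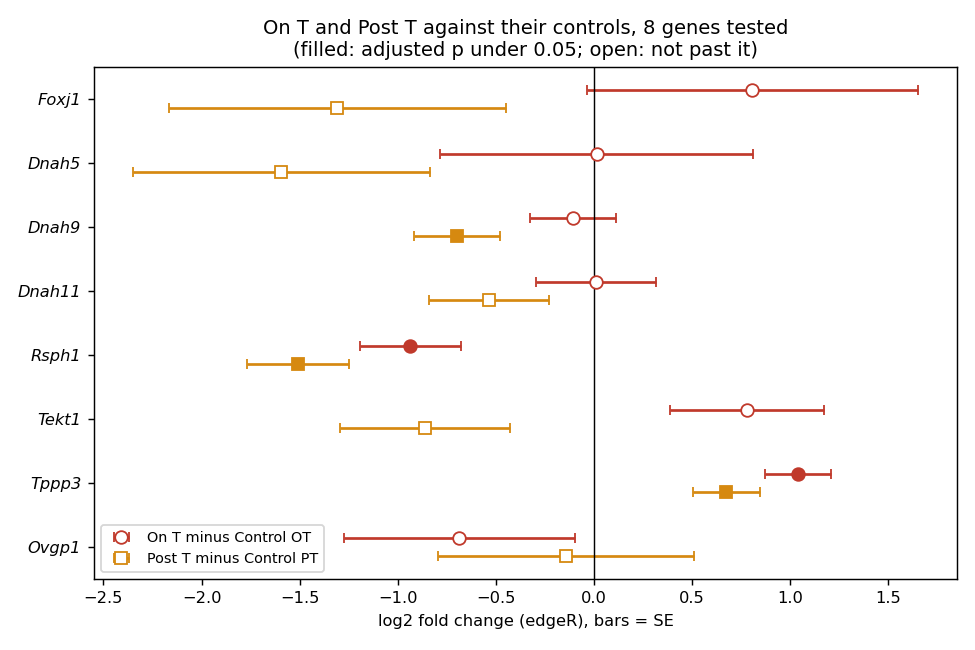
log2 fold changes (horizontal axis) of the 8 genes tested, On T minus Control OT (circles) and Post T minus Control PT (squares), with bars of 1 SE and filled symbols where the edgeR adjusted p is under 0.05. Tppp3 is filled and to the right in both comparisons (1.04 and 0.67), Rsph1 is filled and to the left in both (-0.94 and -1.51), and Dnah9 is filled in Post T only (-0.70).

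The effect in Post T was then set against the effect in On T in the same fit. No gene of the 8 was called for this difference, where 3.25% of all genes tested were, and 1 of the 8 had an unadjusted p under 0.05. DESeq2 and limma also called 0 of the 8. The gene with an unadjusted p under 0.05 was Tekt1, with a log2 difference of -1.64 ± 0.59 (SE) and an edgeR adjusted p of 0.178, and leaving out Post T replicate 2 gave -2.19 with an edgeR adjusted p of 0.0422. The difference was -0.57 for Rsph1 (SE 0.36, edgeR adjusted p = 0.521), -0.36 for Tppp3 (SE 0.24, edgeR adjusted p = 0.539) and -0.59 for Dnah9 (SE 0.31, edgeR adjusted p = 0.414). The call of Dnah9 in Post T and its absence in On T are therefore not shown to differ.

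Between the control groups, the edgeR test called none of the 8 genes, and 0 of all 18833 genes (percent called 0), while 1892 genes had an unadjusted p under 0.05. Among the 8, Ovgp1 and Tppp3 were under 0.05 before adjustment. Ovgp1 averaged 1.02 ± 0.124 CPM in Control PT and 3.67 ± 2.48 CPM in Control OT (SD, n = 4 each), with a log2 difference of -1.84 ± 0.63 (SE) and an edgeR adjusted p of 0.31. Tppp3 averaged 16.0 CPM in Control PT and 22.2 CPM in Control OT, with a log2 difference of -0.47 ± 0.17 (SE) and an edgeR adjusted p of 0.336. In this comparison DESeq2 called 179 of all genes and limma 0, and both called 0 of the 8.

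Of 66 genes tested in the 5 motile cilia lists, 1 was called higher and 1 lower in On T, where 9.27% of all genes were called, and 2 higher and 2 lower in Post T, where 12.3% were. Their median log2 fold change was 0.11 in On T and -0.02 in Post T, beside -0.01 for all genes in each comparison. Without On T replicate 2 and Control PT replicate 3, 0 were higher and 1 lower in On T, and 5 were higher and 2 lower in Post T. Spag1, a factor for the assembly of dynein arms, was called lower in both comparisons. Its mean was 9.24 ± 2.02 CPM in On T and 27.0 ± 13.5 CPM in Control OT (SD, n = 4 each), with a log2 fold change of -1.54 ± 0.32 (SE) and an edgeR adjusted p of 0.00563. In the older mice it was 9.09 ± 0.798 CPM in Post T and 35.3 ± 16.0 CPM in Control PT (SD, n = 4 each), with a log2 fold change of -1.96 ± 0.33 (SE) and an edgeR adjusted p of 0.00047.

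Dynein genes and a further assembly factor were also called. Lrrc6, another dynein assembly factor, fell to 0.190 ± 0.0386 CPM in Post T, against 0.549 ± 0.185 CPM in Control PT (log2 fold change -1.53, SE 0.35, edgeR adjusted p = 0.00655). Dnah2, an inner arm heavy chain, averaged 28.9 ± 6.18 CPM in Post T and 11.1 ± 3.04 CPM in Control PT (log2 fold change 1.38, SE 0.27, edgeR adjusted p = 0.00175). Dnah17, an outer arm heavy chain of the sperm tail, was named after its values were seen. It averaged 2.83 ± 0.606 CPM in On T and 1.64 ± 0.208 CPM in Control OT (log2 fold change 0.79, SE 0.19, edgeR adjusted p = 0.0132), and it was the gene of the 66 called for the difference of the effects (-1.06, SE 0.27, edgeR adjusted p = 0.0398). Each of these means is of 4 libraries with its SD. Most of the lists' more abundant members did not pass the test in either comparison. Rsph3a and Rsph3b, radial spoke proteins with means of 44.1 and 37.3 TPM, and Tubb4b, a tubulin of axonemes and of other microtubules with a mean of 173 TPM, had edgeR adjusted p of at least 0.388, 0.678 and 0.565.

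**Figure D4:**
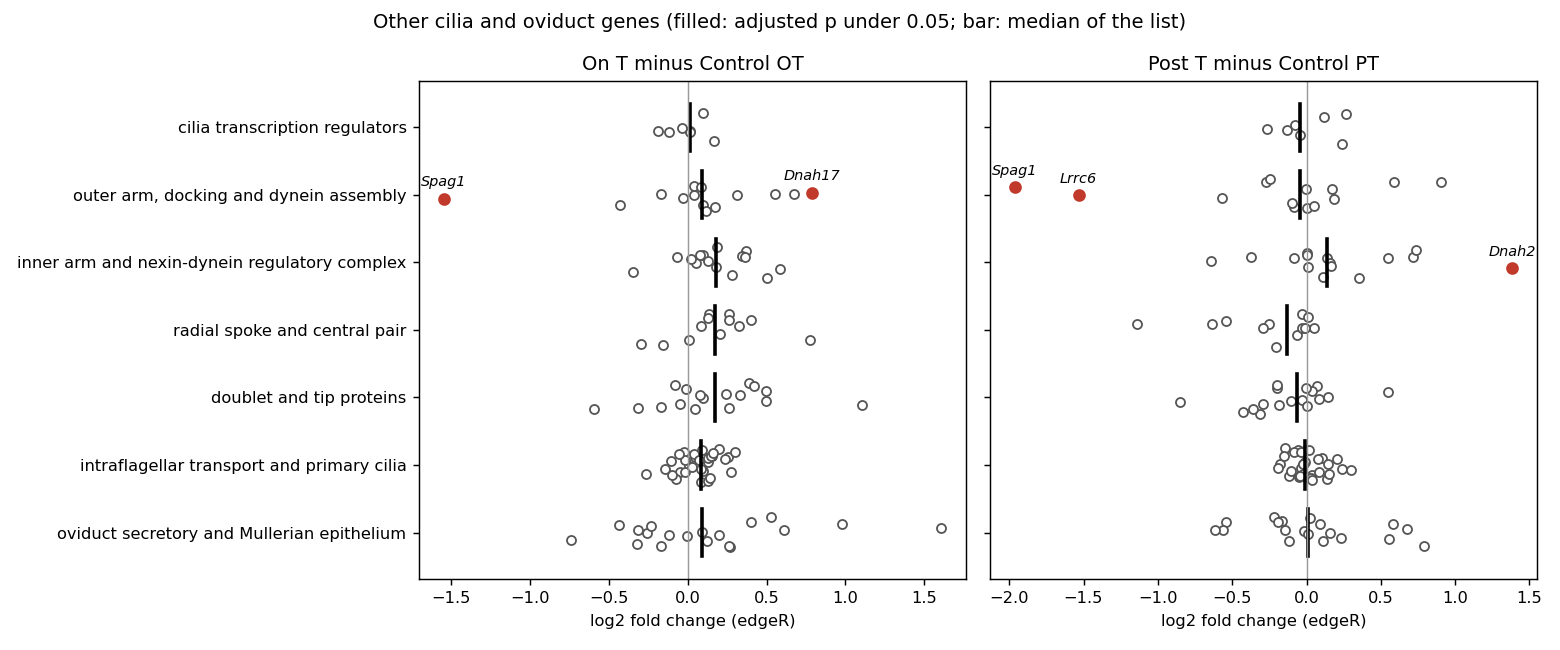
log2 fold changes (horizontal axes) of the genes tested in 5 motile cilia lists, in a list of intraflagellar transport and primary cilia genes and in a list of oviduct secretory and Müllerian epithelium, On T minus Control OT (left) and Post T minus Control PT (right). Points are genes, filled where the edgeR adjusted p is under 0.05, and bars are list medians. Spag1 and Dnah17 are filled on the left and Spag1, Lrrc6 and Dnah2 on the right.

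Intraflagellar transport and the primary cilium are used by many cells without motile cilia. All 31 genes of this list were tested, and edgeR, DESeq2 and limma called 0 in either comparison, beside edgeR's 9.27% of all genes in On T and 12.3% in Post T, although 5 in On T and 2 in Post T had an unadjusted edgeR p under 0.05. The list had medians of 0.08 in On T and -0.01 in Post T on the log2 scale. At an unadjusted level the smallest p belonged to Ift172, a carrier subunit of this transport, with 47.5 ± 2.97 CPM in Post T and 38.7 ± 5.24 CPM in Control PT (SD, n = 4 each, edgeR adjusted p = 0.0801). Of 28 further genes of oviduct secretory and Müllerian epithelium, 19 were tested and the same tools called 0, beside the same shares of all genes, with 1 in On T and 2 in Post T under an unadjusted edgeR p of 0.05. The medians were 0.09 in On T and 0.01 in Post T on the log2 scale. The summed level of these 28 was 61.8 to 148 CPM in On T, 99.7 to 120 CPM in Control OT, 94.1 to 140 CPM in Post T and 109 to 130 CPM in Control PT. In this list Lhx1 was at 0 in 14 libraries, Slc26a4 in 11 and Sult1d1 in 8.

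The members did not rise and fall together across libraries. Over the 16 libraries, which differ in depth and share the tissue behind every point, the log2 CPM of Foxj1 and Pax8 had a Pearson r of 0.81, and 0.46 over the 14 libraries without On T replicate 2 and Control PT replicate 3. Dnah5 and Dnah9 had an r of 0.79, and 0.77 over those 14. Rsph1 and Tppp3 ran in opposite directions, with an r of -0.73 over 16 libraries and -0.43 once each group's mean was removed. Foxj1 and Rsph1 had an r of -0.06.

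Genes with the most similar pattern were looked up among 14969 tested genes by r of log2 CPM over the 16 libraries, leaving out predicted genes and pseudogenes. For Tppp3 they were Kit, a receptor tyrosine kinase of theca cells and oocytes, at 0.96, then Chdh at 0.95 and Dhtkd1 at 0.93. With group means removed these were 0.79, 0.76 and 0.60. Another pattern was the mean of 6 tested members, Foxj1, Rsph1, Dnah5, Dnah9, Dnah11 and Tekt1. For this mean the nearest genes were Plppr4 at 0.87, Gk at 0.84, Fgf1 and Epm2aip1 at 0.77 each, and Cdh11 at 0.76. None of these 5 is a gene of motile cilia in the lists used. For Ovgp1 they were Cdr2 at 0.82, Upk1a at 0.77 and Slfn9 at 0.76, and for Pax8 Nrg4 at 0.86, Fndc7 at 0.73 and Sh3rf3 at 0.73. Over the 14 libraries without On T replicate 2 and Control PT replicate 3, r for Pax8 was 0.72 with Nrg4 and 0.30 with Fndc7. For Rsph1, chosen after its values were seen, they were Plin5, a lipid droplet protein, at 0.95, then Lrrc20 and Mmel1 at 0.94 each. With group means removed these were 0.71, 0.73 and 0.70. Plin5 was itself called lower in both comparisons, with log2 fold changes of -3.09 in On T and -5.84 in Post T (edgeR adjusted p = 0.00491 and 2.02e-05). For Foxj1, also chosen after its values were seen, the nearest was Nrg4 at 0.87.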

How the data were processed

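The labels describe poly(A) RNA of 16 mouse ovaries, 1 per mouse, with strand-marked libraries read from both ends. Tools listed in the submitters' processing notes are RSEM 1.3.3, STAR 2.7.8a, FastQC 0.11.8 and cutadapt 2.3, with GRCm38 as the build. The deposited expected counts are the authors' RSEM estimates per gene, not normalised, and all were whole numbers when checked. The deposited TPM are the authors' values relative to transcript length and depth, and the deposited FPKM were left aside. Which annotation release was used, and whether counting used strand, is not given in the sources used here.

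The model was edgeR 4.0.16 in R 4.3.3, with 18833 of 55426 genes kept by filterByExpr (minimum count 10) and TMM scaling. A single fit of group means without covariates covered the 16 libraries, and each contrast had a quasi-likelihood F test, Benjamini-Hochberg adjusted over all genes tested, at 0.05. Each SE was derived from the log2 fold change and F. The common biological coefficient of variation was 0.179. Levels are TMM-scaled CPM, as mean ± SD of 4 libraries, and TPM where genes are compared with each other. Replicates are separate mice, no 2 libraries were identical, and the highest correlation between libraries was 0.991. The floor of 3 counts covers counting error only. The script was tested on simulated data drawn from these libraries' means.

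The genes, the other lists, the tests and the alternatives were chosen with earlier results of these data known. The text names all 10 genes. From every other list it took the 2 members with the highest mean TPM and the 2 with the smallest p in either treatment contrast. Of these, those bearing on a result are given. Other list genes in the text fall outside this rule and were picked by their counts or calls. They are Dnah17, Myh11, Rsph4a, Sntn, Slc34a2, Wdr63, Drc7, Mcidas, Tekt3, Cdc20b, Pih1d3, Lhx1, Slc26a4, Sult1d1, Adipoq and Cidec. Rsph4a, Sntn, Slc34a2, Wdr63 and Drc7 were named for their counts in Control PT replicate 3. Of the cilia lists, 1 gene is not reported here and not drawn, and it is kept in counts and medians. Genes of similar pattern are the 5 (mean of Foxj1 and the tested axonemal members) or 3 (single genes) with the highest r of log2 CPM (prior count 2). Overlaps with other genes were measured on the GENCODE annotation of GRCm38, which held 99.51% of the table's identifiers. Promoters are RefSeq windows.

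The alternatives run were DESeq2 1.42.0, limma 3.58.1 on log2(TPM + 1) and on log2(TPM + 0.1), other size factors (median of ratios), no filter or 1 CPM in 4 libraries, the 8 libraries compared fitted alone, a replicate block, an age term, and each library left out. Leaving out On T replicate 2 and Control PT replicate 3 together was chosen after seeing the data.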

Additional observations from a re-analysis of the deposited data

Results flagged for a closer look

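A library far from the other 3 of its group was looked for in 40 sets of 4 values, 10 genes in 4 groups, and 4 were found. The cut-off is passed by about 1 in 20 sets of independent normal values. That rate does not carry over here, since several genes had few counts and the genes share libraries. Foxj1 in Control PT stood at 2.31 CPM in replicate 3, with the nearest library at 0.195 CPM. Pax8 in Control PT stood at 1.27 CPM in replicate 3, with the nearest library at 0.172 CPM. These came from the same library. Rsph1 in Control OT stood at 3.29 CPM in replicate 2, with the nearest library at 2.13 CPM, and the On T call of Rsph1 was lost without it (edgeR adjusted p = 0.117). Dnai1 in Post T stood at 0.408 CPM in replicate 3, which is 12 counts, with the nearest library at 0.0594 CPM.

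Among the markers of other cell types, 2 genes differed between the Post T and the On T effects by a test of that difference. The lists of ovarian surface, smooth muscle, adipocyte and ovary markers had 15, 10, 9 and 12 genes tested. Of all genes tested, 3.25% were called for this difference. Aldh1a1, a retinaldehyde dehydrogenase listed here with the ovarian surface, had a difference of 1.13 on the log2 scale (edgeR adjusted p = 0.0332). Lpl, the lipoprotein lipase of fat and other tissues, had a difference of 1.12 on the log2 scale (edgeR adjusted p = 0.00544). For this difference DESeq2 called 1 gene of the ovarian surface list, while limma on log2(TPM + 1) called 0. Each of these tools called 1 gene of the adipocyte list.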

How the results depend on the processing

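Tppp3 in On T and Rsph1 in Post T kept their calls under every alternative run. Fitted on the 8 libraries alone, or without On T replicate 2 and Control PT replicate 3 together, members called in On T came to 1, against 2 in the reported fit. In all, 1746 genes were called in On T and 1130 with limma on log2(TPM + 1). The motile cilia lists had 2 calls in On T, and 1 with limma on log2(TPM + 1), with limma on log2(TPM + 0.1) or without the 2 libraries. In Post T they had 4 calls, and 7 without the 2 libraries. The cause of these shifts was not tested.

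Leaving out 1 library at a time, members called ranged from 1 to 3 in On T, from 2 to 4 in Post T, from 0 to 1 for the difference of the effects and from 0 to 0 between the controls. Genes called in all ranged from 1081 to 2071 in On T and from 1753 to 2568 in Post T, and calls in the motile cilia lists from 2 to 2 and from 4 to 5. Where the direction turned in at least 1 such fit, the log2 values ranged as follows. Foxj1 ranged from -1.67 to 0.97 in Post T, from -2.50 to 0.14 for the difference and from -1.19 to 1.45 between the controls. In On T, Dnah5 ranged from -0.64 to 0.43, Dnah9 from -0.27 to 0.0052 and Dnah11 from -0.30 to 0.21. Tekt1 between the controls ranged from -0.020 to 0.44.

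No other direction turned except in values that did not pass the test. Without On T replicate 2 and Control PT replicate 3 together, Foxj1 gave 0.94 in Post T, 0.87 for the difference and -1.19 between the controls, and Dnah11 gave -0.30 in On T. With age as a covariate, Foxj1 gave -7.63 and Dnah5 -2.39 between the controls, where age and group nearly coincide. With limma on log2(TPM + 1) and log2(TPM + 0.1), Dnah5 gave -0.00014 and -0.010 in On T, and Dnah9 gave -0.017 and -0.074 between the controls. Under the replicate block, Dnah5 gave -0.13 and Dnah11 -0.018 in On T.

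A pairing of the mice by replicate number was not shown, although weak correlations cannot exclude one. Same-numbered libraries of On T and Control OT had correlations of their deviations from the group means of -0.019 to 0.130. Those of Post T and Control PT were 0.042 to 0.233. In each comparison only replicate 2 correlated best with its own number. With the replicate number as a block, 1676 genes were called in On T and 2274 in Post T, and members called stayed at 2 in On T and 3 in Post T.

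Depth limits Dnah5, Dnai1, Foxj1 and Pax8, whose counts in several libraries are near the floor of 3. Bulk ovary RNA holds no record of which cells a transcript came from, and 4 mice per group set the precision of each mean.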

Other observations

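Among the cilia list genes too low to test, Cdc20b and Pih1d3 had 0 counts in all 16 libraries. Mcidas, a regulator at the head of the multiciliated program, had 2 counts over the 16 libraries together, and Tekt3, another tektin, had 2. Wdr63, an inner arm protein, had 12 counts in Control PT replicate 3, and Drc7, of the nexin-dynein complex, had 8 in that library.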
